A study of Mus musculus with 5 samples.

Results

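The genes described here encode the enzymes that add acetyl groups to histones and other proteins (writers), the enzymes that remove them (erasers) and a group of proteins that bind acetylated or methylated histone tails (readers). They were chosen by name from the deposited gene table: every symbol beginning with Hdac, Sirt, Kat, Brd or Ing and a digit, Brdt, the Brpf genes, and Crebbp, Ep300 and Hat1. Rows with several symbols and pseudogenes were left out. This gave 43 of the 56324 rows of the table, which stand for 42 genes, because Kat2b has a long row and a short row inside it. Ing4 shares a row with the acrosomal gene Acrbp and was left out. Messenger RNA had been sequenced from germ cells of C57Bl/6 male mice, 12 weeks old, separated by sedimentation at unit gravity, with no other treatment or genotype named. Spermatocytes, which are the germ cells in meiosis, gave 2 samples, and spermatids, the haploid cells that mature into sperm, gave 3. The labels name neither the animals behind each sample nor the stages within each fraction, so the spread that the p-values rest on is that among the 5 samples and may be technical.

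Acetylation loosens the hold of histones on DNA and marks chromatin for bromodomain proteins. Late in spermatid development histone H4 becomes heavily acetylated before histones are exchanged for transition proteins and protamines, and the testis-specific bromodomain protein Brdt acts in that exchange as well as in gene expression during meiosis. Writers belong to a few families: the MYST enzymes, the GNAT enzymes and the pair Ep300 and Crebbp. Erasers are either zinc-dependent (Hdac genes) or NAD-dependent (sirtuins), and many work on proteins other than histones.

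The values are gene counts that the authors divided by 1 size factor per library, called normalized values below. Recovered read totals were 52784231 to 84361908 per library. Spermatid markers listed for this work were higher in spermatids for 10 of 10 genes. Their summed value was 17313 and 13252 in the spermatocyte samples, and spermatid replicate 1, at 1696645, stood apart from replicates 2 and 3, at 620431 and 589754. Of 10 spermatocyte markers 8 were lower in spermatids and 0 higher. Sertoli cell markers were lower in spermatids for 12 of 12 genes, with summed normalized values of 64151 and 82975 in the spermatocyte samples and 1780 to 2880 in spermatids. Leydig cell markers were lower for 7 of 7 matched genes (3176 and 3933 in spermatocytes, 163 to 368 in spermatids). Of 12 myoid, endothelial, macrophage and blood markers 7 were higher in spermatids and 1 lower. They summed to 480 and 595 in spermatocytes and 1851 to 3175 in spermatids. Of 10 spermatogonial markers 5 were higher in spermatids and 2 lower, with sums of 1667 and 1898 against 2098 to 2771. No Sertoli, Leydig or spermatogonial marker was at 0 in any library. In these bulk samples fewer cells of a type and less RNA per cell cannot be told apart.

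All 43 rows passed the filter on low values (a mean of at least 10 over the 5 samples). In the limma fit over the whole table, with Benjamini-Hochberg adjustment at 0.05, 18 were higher in spermatids, 18 were lower and 7 were not called. These shares are near the background: 77.1% of the 28370 rows tested were called, 40.6% as higher and 36.5% as lower. A called difference of at least 2-fold was found for 24 members, 12 in each direction, where the background is 61.9% of rows in all, 33.2% higher and 28.7% lower. Spermatocyte and spermatid values did not overlap for 40 of the 43 rows, against 85.8% of all rows tested. Without spermatid replicate 1, 20 members were called higher and 19 lower, and 0 member calls were lost. The median log2 difference was 0.06 over the 43 rows, -0.06 over the 42 genes without the short Kat2b row and 0.07 over all rows. The set as a whole therefore moved as the rest of the table did, and the differences lay between its members.

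**Figure D1:**
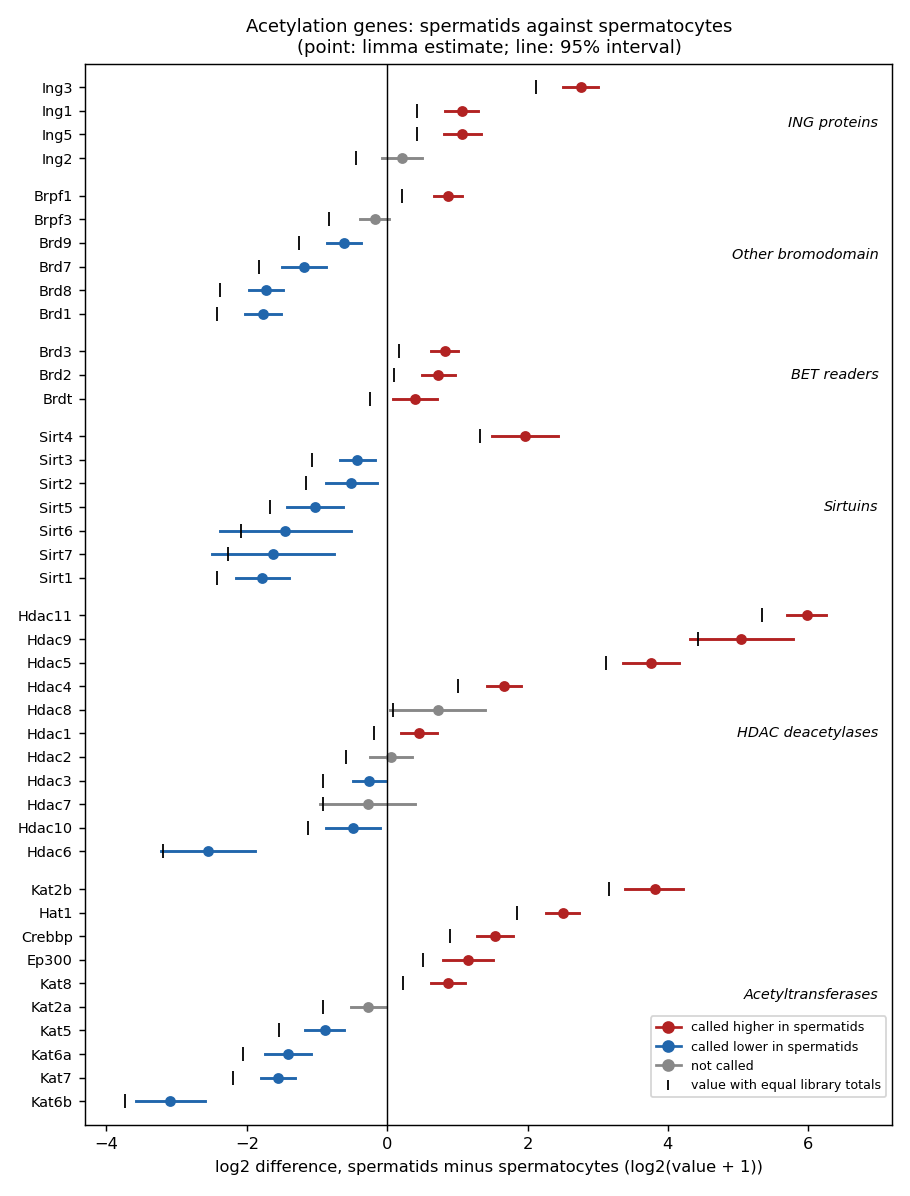
Log2 difference, spermatids minus spermatocytes, for the genes by family (points, limma estimate; lines, 95% interval; colour, call), with the value after rescaling libraries to equal totals as a black tick. Hdac11 lies farthest to the right at 5.98 and Kat6b farthest to the left at -3.09.

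The direction of small differences depended on the scaling between libraries. With each library rescaled to the same total, the median log2 difference of all rows fell to -0.57, and 12 members were called higher and 24 lower. The same rescaling called 30.5% of all rows higher and 49.4% lower. In all, 11 members were called higher and 13 lower under every one of the 15 alternatives in scaling, filter, test and samples. Of all rows 37.4% kept their call and direction in this way. A row with a mean under 100 could not, because the filter at 100 left it out. Among members that filter lost only the call of Sirt6, so the 37.4% is not a like-for-like background. The 11 were Hdac4, Hdac5, Hdac9, Hdac11, Sirt4, Kat2b, Hat1, Crebbp, Ing1, Ing3 and Ing5, and the 13 included Hdac6, Sirt1, Sirt5, Sirt7, Kat5, Kat6a, Kat6b, Kat7, Brd1, Brd7, Brd8 and Brd9.

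Sequences before the start sites of 4 members with large differences or high levels are shown here. RefSeq windows on GRCm38.p6, the build of the table's mm10 coordinates, were found for 36 of the 42 genes. Each run is the 250 bases before the most upstream RefSeq start, 5′ to 3′ on the gene's strand. Capitals mark the core of the cAMP response element (CRE), TGACG on either strand, or its full form TGACGTCA, the site bound by the CREM factor of spermatids. These 4 genes were chosen after their values were seen, and each printed window holds the core, against 13 of the 36 members. The windows of Hdac5, Hdac9 and Kat6b, whose differences were larger than that of Ing3, hold no core and are not printed.
Ing3 (higher in spermatids), chr6:21949321-21949570, plus strand: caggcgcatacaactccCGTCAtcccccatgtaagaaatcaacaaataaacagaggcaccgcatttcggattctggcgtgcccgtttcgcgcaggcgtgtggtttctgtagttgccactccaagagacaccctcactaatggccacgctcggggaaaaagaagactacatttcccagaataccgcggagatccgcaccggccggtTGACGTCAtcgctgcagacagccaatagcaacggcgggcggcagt
Hdac11 (higher in spermatids), chr6:91156565-91156814, plus strand: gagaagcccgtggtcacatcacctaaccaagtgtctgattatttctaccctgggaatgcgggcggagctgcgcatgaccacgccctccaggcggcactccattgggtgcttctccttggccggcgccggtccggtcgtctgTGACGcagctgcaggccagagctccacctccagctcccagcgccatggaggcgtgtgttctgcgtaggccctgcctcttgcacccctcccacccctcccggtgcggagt
Kat2b (higher in spermatids), chr17:53566721-53566970, plus strand: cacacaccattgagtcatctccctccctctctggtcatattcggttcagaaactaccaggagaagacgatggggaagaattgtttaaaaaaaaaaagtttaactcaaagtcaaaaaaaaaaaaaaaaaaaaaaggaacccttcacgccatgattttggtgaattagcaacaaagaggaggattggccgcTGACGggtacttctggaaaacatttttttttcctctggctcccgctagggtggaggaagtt
Kat7 (lower in spermatids), chr11:95310247-95310496, minus strand: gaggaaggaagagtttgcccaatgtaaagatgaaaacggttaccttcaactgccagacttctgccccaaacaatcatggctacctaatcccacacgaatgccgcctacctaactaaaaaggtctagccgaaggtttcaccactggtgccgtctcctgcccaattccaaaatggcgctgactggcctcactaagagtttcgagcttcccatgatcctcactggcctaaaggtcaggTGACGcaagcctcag

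The full CRE was found before 1 of the 36 members, Ing3, where it begins 45 bases before the start, and before 1.77% of the 27025 genes with a window. The core TGACG, which the full form contains, was found before 13 of the 36 members and 19.8% of all genes. It stood before 8 of the 17 members called higher that had a window and before 4 of the 13 called lower, Kat7 among them, where it lies 15 bases from the start. A core of the X-box that RFX factors bind, GTTGCC on either strand, was found before 8 of the 36 members and 11.8% of all genes: 6 of those 17, 0 of those 13 and 2 of the 6 not called. A gene with several windows counts if any of them holds the motif. The 36 members had 54 windows and the 27025 genes 32851, and the shares are not corrected for this. The GC box GGGCGG on either strand was found before 29 of the 36 members and 35.4% of all genes. The median GC content of the members' windows was 63.4%, against 52.4% for all genes, so the members have GC-rich starts in both directions of change. Their median number of CG pairs was 19.25, against 6 for all genes, and the core TGACG itself holds a CG. A match describes letters and not a bound site.

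Among the writers, the MYST enzymes were mostly lower in spermatids, while both p300-type coactivators and 2 of 3 GNAT-type enzymes were higher. Of 10 writers 5 were called higher, 4 lower and 1, Kat2a, was not called. These shares are near those of all rows, 40.6% higher and 36.5% lower. Kat7, a MYST enzyme that acetylates histones H3 and H4 together with Brpf scaffold proteins, had the highest mean over the 5 samples of any member and the highest value in spermatocytes, and in spermatids Brdt, Brd2 and Brd3 had higher means. It had normalized values of 56534 and 54031 in spermatocytes and of 20630, 17233 and 18669 in spermatids. The groups were far apart, and the value fell 2.93-fold (log2 difference -1.56 ± 0.10 SE, limma adjusted p = 1.5e-05). Kat7 spans chromosome 11 from 95271853 to 95310246 (mm10).

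Kat6b, a MYST enzyme that acts in large complexes with Brpf1 and Ing5, had the deepest fall of any member. The 2 spermatocyte samples had 476 and 443 and the spermatid samples 51.2, 59.5 and 49.3, an 8.62-fold fall (log2 difference -3.09 ± 0.21 SE, limma adjusted p = 1.6e-05). Its close relative Kat6a fell less, from 987 and 982 to 380, 403 and 333 (-1.41 ± 0.14, limma adjusted p = 9.9e-05). Kat6a was therefore 2.07 and 2.21 times as high as Kat6b in the spermatocyte samples and 6.65 to 7.30 times as high in the spermatid samples. Kat5, the catalytic subunit of the NuA4 complex with roles in DNA repair, stood at 9974 and 9348 in spermatocytes and at 5888, 4743 and 5039 in spermatids (-0.89 ± 0.12, limma adjusted p = 3.8e-04).

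Kat8, the MYST enzyme that acetylates lysine residues of histone H4 in the MSL and NSL complexes, went the other way. It had values of 7440 and 7313 in spermatocytes and of 14825, 13106 and 12403 in spermatids (0.86 ± 0.10, limma adjusted p = 2.4e-04). The rise was smaller with equal library totals (0.22, still called) and was not called after quantile normalization. Per kilobase of exon, Kat8 had 8515 in spermatids against 5197 for Kat7, and 4672 against 15246 in spermatocytes, so the order of the 2 genes was exchanged. Kat7 made up 60.2% and 59.9% of the summed level per kilobase of the 10 writers in spermatocytes and 24.5% to 26.4% in spermatids. Kat8 made up 18.2% and 18.6% in spermatocytes and 40.2% to 43.2% in spermatids. These shares are taken within a library and do not depend on the scaling between libraries.

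Kat2b, a GNAT enzyme of the SAGA and ATAC coactivator complexes, had the largest rise among the writers. Spermatocytes had 267 and 393, and spermatids had 4829, 4423 and 4394, 13.8-fold higher (3.81 ± 0.17, limma adjusted p = 2.9e-06). As a ratio, the spermatocyte samples differed from each other by more than the spermatid samples did. Its paralog Kat2a stood at 1020 and 996 in spermatocytes and 826, 844 and 839 in spermatids, values that did not overlap but were not called (-0.27, 95% interval -0.52 to -0.02, limma adjusted p = 0.052). Kat2a was called lower in 8 of the 15 alternatives, among them equal totals (-0.91), quantile normalization (-0.72), TMM factors (-0.36) and DESeq2. Kat2a was 3.81 and 2.53 times as high as Kat2b in the spermatocyte samples and 0.171 to 0.191 times as high in the spermatid samples. The ratio within a library thus changed 16.8-fold, and the more abundant paralog was a different one in each cell type. The short row inside Kat2b held 1.34 to 35.6 in all libraries and was not called (limma adjusted p = 0.087), but was called higher by edgeR and DESeq2 and without spermatid replicate 1 (limma adjusted p = 0.0036).

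Hat1, which acetylates newly made histone H4 before it enters chromatin, had values of 779 and 792 in spermatocytes and 4169, 4593 and 4584 in spermatids. This was 5.66-fold higher (2.50 ± 0.10, limma adjusted p = 1.6e-06), with tight values in both groups. Crebbp, a broad coactivator acetyltransferase, rose from 1716 and 1720 to 4488, 5144 and 5324 (1.53 ± 0.11, limma adjusted p = 2.0e-05). Its paralog Ep300 had 422 and 426 in spermatocytes and 809, 993 and 1049 in spermatids (1.15 ± 0.15, limma adjusted p = 3.8e-04). The rise of Ep300 was not called with equal library totals (0.51, limma adjusted p = 0.059). Crebbp was 4.03 and 4.06 times as high as Ep300 in spermatocytes and 5.07 to 5.54 times in spermatids.

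**Figure D2:**
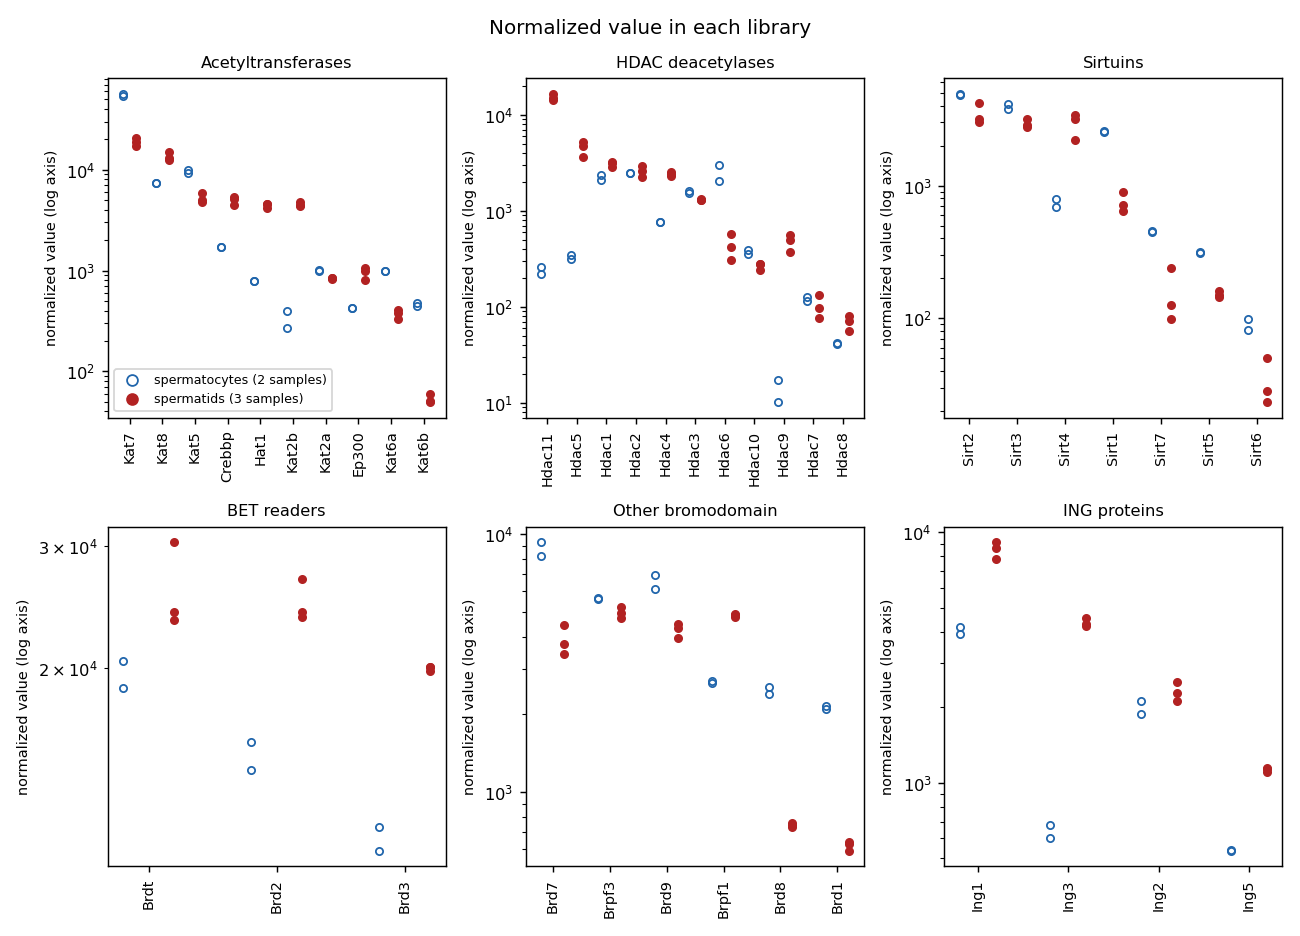
Normalized value (log axis) of each gene in every library, by family and in order of mean level, with open blue points for the 2 spermatocyte samples and filled red points for the 3 spermatid samples. Hdac11 is near 240 in spermatocytes and near 15235 in spermatids, and the groups overlap only for Hdac2 and Hdac7.

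Among the zinc-dependent erasers, the largest differences were rises of Hdac11 and of class IIa genes, whereas the class I genes differed less, by amounts whose size and sign depended on the scaling. Of 11 genes 5 were called higher, 3 lower and 3 not, where 40.6% of all rows were higher and 36.5% lower. Hdac11, the single class IV enzyme, which removes long fatty acyl groups from lysine as well as acetyl groups, had values of 260 and 221 in spermatocytes. In spermatids it had 14800, 16517 and 14387, 63.4-fold higher (5.98 ± 0.12, limma adjusted p = 3.7e-07), the largest rise of any member. The spermatocyte mean was 1.58% of the spermatid mean, and for the 10 spermatid markers this percentage ran from 1.27% to 1.82%. Whether spermatid RNA in the spermatocyte fraction contributed to the spermatocyte value was not tested. Hdac11 spans chromosome 6 from 91156803 to 91174688 (mm10), and no other row of the table overlaps it.

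Hdac11 changed the make-up of the family. It was 2.86% and 2.35% of the summed level per kilobase of the 11 Hdac genes in spermatocytes and 56.5% to 58.8% in spermatids. Hdac1 was the largest part in spermatocytes, 34.1% and 28.9%, followed by Hdac3 at 21.9% and 22.0% and Hdac2 at 17.0% and 16.5%. In spermatids Hdac1 made up 14.4% to 16.3%. The summed level per kilobase of the family was 3426 and 3550 in spermatocytes and 9482 to 10650 in spermatids.

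The class IIa genes encode deacetylases with weak activity of their own that bind MEF2 transcription factors and shuttle between nucleus and cytoplasm. Hdac5 had 313 and 348 in spermatocytes and 3664, 5224 and 4750 in spermatids, 13.7-fold higher (3.76 ± 0.17, limma adjusted p = 2.6e-06). Hdac4 went from 757 and 762 to 2519, 2400 and 2286 (1.66 ± 0.10, limma adjusted p = 1.1e-05). Hdac9 was nearly absent from spermatocytes, with 17.2 and 10.1, or 16 and 15 reads, and reached 555, 497 and 371 in spermatids (5.04 ± 0.31, limma adjusted p = 1.1e-05). The Hdac9 row overlaps 7 other rows, the highest of which had a mean of 53.8. Hdac7 differed from these 3 genes: its values of 115 and 125 in spermatocytes and 76.0, 96.1 and 132 in spermatids overlapped (-0.28, 95% interval -0.96 to 0.40, limma adjusted p = 0.40), and it was called lower with equal totals (-0.92). The Hdac7 row overlaps that of Slc48a1, which had a higher mean (245), and without a stated strand setting reads of such rows cannot be told apart.

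Hdac4 was 2.41 and 2.19 times as high as Hdac5 in the spermatocyte samples and 0.460 to 0.688 times as high in the spermatid samples, so this pair of class IIa genes also changed order.

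Class I genes are Hdac1, Hdac2, Hdac3 and Hdac8. All but Hdac8 encode nuclear deacetylases of the Sin3, NuRD, CoREST and NCoR corepressor complexes. Hdac1 had 2382 and 2090 in spermatocytes and 2874, 3120 and 3194 in spermatids (0.46 ± 0.11, limma adjusted p = 0.0066), but the difference was -0.19 with equal library totals and -0.09 after quantile normalization, neither of them called, and it was not called without spermatocyte replicate 2 (limma adjusted p = 0.063). Hdac2 had 2468 and 2474 in spermatocytes and 2595, 2912 and 2251 in spermatids, and the groups overlapped (0.06, 95% interval -0.25 to 0.36, limma adjusted p = 0.69). Hdac3 had 1525 and 1589 against 1291, 1312 and 1291 (-0.26 ± 0.10, limma adjusted p = 0.043). With equal totals Hdac3 was at -0.91 and Hdac2 at -0.59, after quantile normalization they were at -0.75 and -0.50, and all 4 were called lower. The call on Hdac3 was lost in 6 of 15 alternatives, among them leaving out any 1 library other than spermatid replicate 1 (limma adjusted p from 0.072 to 0.18). Hdac8, on the X chromosome, was low, 40.9 and 41.6 in spermatocytes and 55.8, 71.4 and 80.7 in spermatids (0.72, 95% interval 0.04 to 1.40, limma adjusted p = 0.052). It was called higher by edgeR and DESeq2 on the recovered reads. The difference of Hdac8 was 0.08 with equal totals and 0.36 after quantile normalization, neither of them called (limma adjusted p = 0.82 and 0.26). The Hdac8 row overlaps 11 others.

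Hdac6, a cytoplasmic deacetylase of tubulin on the X chromosome, fell the most in the family. It stood at 2034 and 2962 in spermatocytes and at 305, 566 and 419 in spermatids, a 5.81-fold fall (-2.55 ± 0.28, limma adjusted p = 1.7e-04). The higher spermatocyte value was in replicate 2, in which 11 of 12 Sertoli cell markers were also higher than in replicate 1. Without that library the log2 difference of Hdac6 was -2.28 (limma adjusted p = 0.0040). The part of Sertoli cell RNA in this and the other members lower in spermatids was not tested; of the 18 members called lower, 5 were higher in spermatocyte replicate 2 than in replicate 1, 27.8% against 43.6% of all rows. Hdac10, a polyamine deacetylase, had 351 and 392 in spermatocytes and 279, 239 and 277 in spermatids (-0.49 ± 0.16, limma adjusted p = 0.027). Its call was lost without spermatocyte replicate 1 or 2 or without spermatid replicate 2 (limma adjusted p from 0.065 to 0.15).

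**Figure D3:**
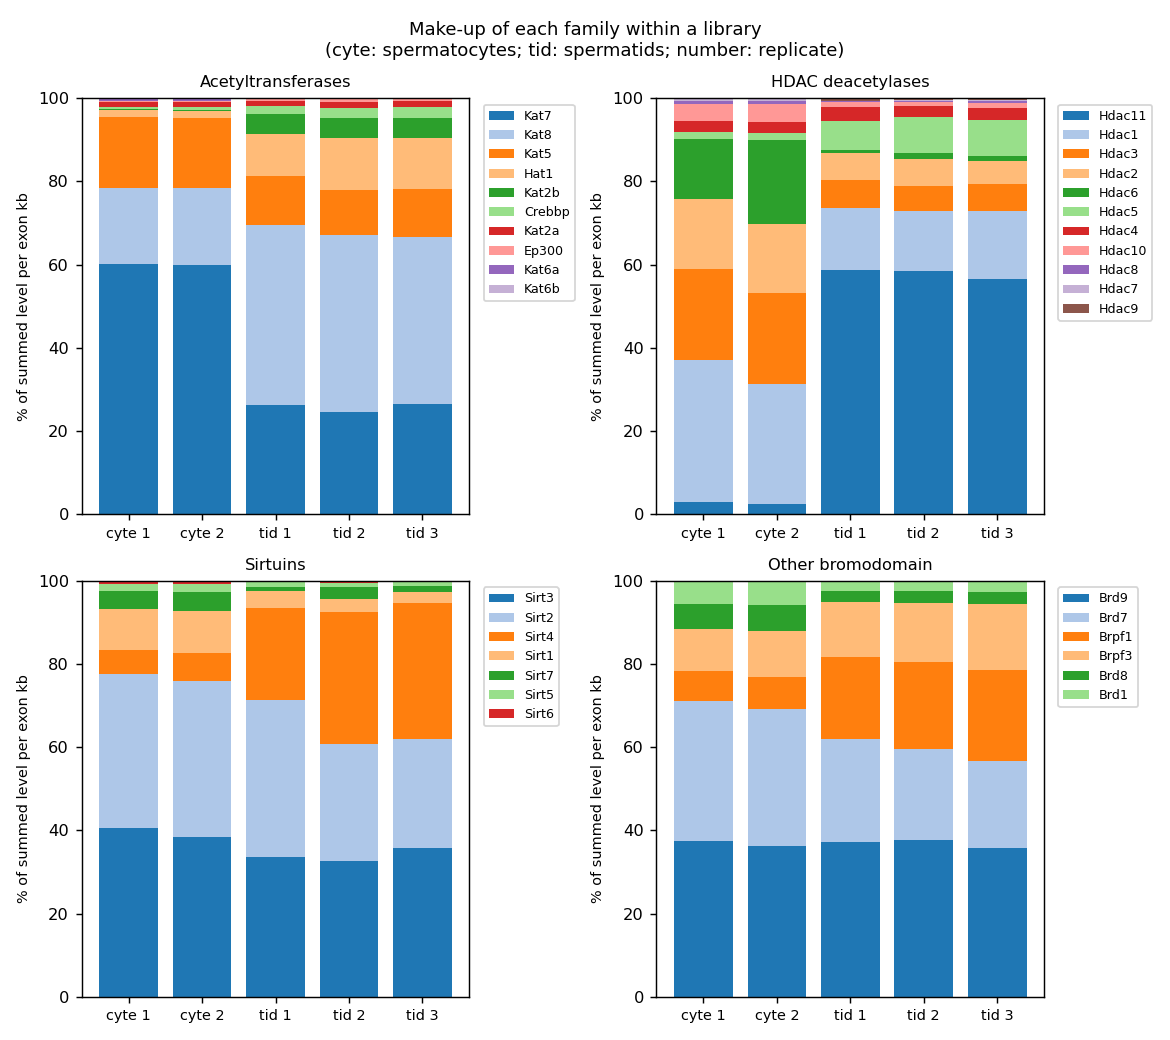
Stacked bars give each gene's percentage of its family's summed level per kilobase of exon in each of the 5 libraries, for writers, zinc-dependent deacetylases, sirtuins and bromodomain genes outside the BET family. Kat7 gives way to Kat8 among the writers, and Hdac11 takes 56.5% to 58.8% of the Hdac level in spermatids.

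Sirtuins were lower in spermatids for 6 of 7 genes, against 36.5% of all rows, and the exception, Sirt4, was 3.97-fold higher. Sirtuins couple removal of acyl groups to consumption of NAD. Sirt1, the nuclear enzyme that acts on transcription factors and histones, had 2559 and 2549 in spermatocytes and 901, 715 and 641 in spermatids (-1.78 ± 0.16, limma adjusted p = 6.4e-05). Sirt7, of the nucleolus, had 447 and 453 against 99.2, 241 and 127 (-1.63 ± 0.36, limma adjusted p = 0.0054), with spermatid replicate 2 well above the other spermatid samples. Sirt6, a chromatin enzyme, was low, with 81.9 and 98.6 against 23.3, 50.5 and 28.3 (-1.45 ± 0.39, limma adjusted p = 0.012), and the same spermatid library was again the highest. The ratio of Sirt6 to Sirt7 overlapped between the cell types, 0.185 and 0.220 in spermatocytes and 0.213 to 0.242 in spermatids. Without spermatocyte replicate 2 the fall of Sirt6 was not called (limma adjusted p = 0.084).

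The 3 mitochondrial sirtuins did not move together. Sirt4, which acts on metabolic enzymes, had 689 and 787 in spermatocytes and 2205, 3187 and 3402 in spermatids (1.97 ± 0.20, limma adjusted p = 1.1e-04). Sirt5, a desuccinylase, had 315 and 308 against 160, 146 and 151 (-1.03 ± 0.17, limma adjusted p = 0.0011). Sirt3, the main mitochondrial deacetylase, had 4108 and 3765 against 2851, 2781 and 3168 (-0.43 ± 0.10, limma adjusted p = 0.0078), and was not called without spermatocyte replicate 1 (limma adjusted p = 0.072). Within a library Sirt4 rose from 5.76% and 6.80% of the summed sirtuin level per kilobase to between 22.0% and 32.6%. Sirt2, a cytoplasmic tubulin deacetylase like Hdac6, had 4912 and 4798 in spermatocytes and 4175, 3154 and 3012 in spermatids (-0.51 ± 0.15, limma adjusted p = 0.019). Its call was lost without any 1 library other than spermatid replicate 1 (limma adjusted p from 0.058 to 0.10), and without a mean-variance trend (0.064). Per kilobase, Sirt3 and Sirt2 were the highest sirtuins in spermatocytes (2283 and 2154), and in spermatids Sirt3 (1702), Sirt2 (1529) and Sirt4 (1438) lay close together. The Sirt3 row overlaps that of Ric8 (mean 1076), and the Sirt2 row that of Gm19897 (mean 575).

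The readers of the BET family, which carry paired bromodomains and recruit elongation factors, included abundant genes whose differences depended on the scaling. Brdt, the testis-specific member, had 20470 and 18736 in spermatocytes and 30343, 24064 and 23487 in spermatids (0.40 ± 0.13, limma adjusted p = 0.028). This rise depended on the scaling: the log2 difference turned to -0.25 with equal totals and to -0.35 by quantile normalization, and each was called as lower. It was also not called with TMM factors (limma adjusted p = 0.055), without a mean-variance trend (0.095), or without spermatocyte replicate 1 (0.078) or 2 (0.18). Brd2, with 15659 and 14245 against 26884, 24109 and 23674, and Brd3, with 11805 and 10905 against 20099, 20087 and 19803, were called higher (0.73 and 0.82) but not with equal totals or after quantile normalization. The Brd3 row overlaps that of Wdr5. Within a library Brdt and Brd2 stayed close, with a ratio of 1.31 and 1.32 in spermatocytes and 0.992 to 1.13 in spermatids.

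Other bromodomain genes were mostly lower in spermatids: of 6 genes 4 were called lower, 1 higher and 1 not, where 36.5% of all rows were lower and 40.6% higher (49.4% and 30.5% with equal totals). No test of the family was made. Brd1, a scaffold of MYST complexes, had 2154 and 2089 in spermatocytes and 591, 640 and 628 in spermatids (-1.77 ± 0.11, limma adjusted p = 1.1e-05). Its relatives differed from it in the deposited scaling: Brpf1 had 2686 and 2651 against 4761, 4870 and 4908 (0.86 ± 0.08, limma adjusted p = 9.6e-05), and Brpf3 had 5609 and 5645 against 4727, 4948 and 5228 (-0.18, 95% interval -0.39 to 0.03, limma adjusted p = 0.10). Brpf3 was called lower with equal totals (-0.83), after quantile normalization (-0.84) and with TMM factors (-0.27). The rise of Brpf1 was not called with equal totals (log2 difference 0.21), and its row overlaps another with a mean of 786. The Brpf1 to Brpf3 ratio was 0.479 and 0.470 in spermatocytes and 0.939 to 1.01 in spermatids.

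Brd7, a subunit of the PBAF remodelling complex, fell from 9268 and 8245 to 4428, 3761 and 3413 (-1.18 ± 0.13, limma adjusted p = 1.8e-04). Brd9, of the non-canonical BAF complex, had 6945 and 6124 against 4460, 4337 and 3965 (-0.62 ± 0.10, limma adjusted p = 0.0013). Brd8, of the NuA4 complex, had 2553 and 2400 against 757, 734 and 746 (-1.73 ± 0.10, limma adjusted p = 9.3e-06), but its row overlaps that of Kif20a, whose mean was 10982.

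The ING genes encode small proteins that bind methylated histone H3 and tether to it complexes that add or remove acetyl groups. Of 4 genes 3 were called higher and 1 not, against 40.6% of all rows higher. The row that Ing4 shares with Acrbp is not among them and went the other way. It had 738 and 686 in spermatocytes and 369, 435 and 556 in spermatids, and its reads cannot be assigned to either gene. Ing3, a subunit of the NuA4 complex, had 681 and 604 in spermatocytes and 4563, 4287 and 4238 in spermatids, 6.79-fold higher (2.76 ± 0.10, limma adjusted p = 1.3e-06). Kat5 and Brd8, of the same complex, were among the members that fell, but the Brd8 row overlaps that of Kif20a. Ing1, of the Sin3 deacetylase complex, had 4198 and 3935 against 8665, 9095 and 7827 (1.07 ± 0.10, limma adjusted p = 7.9e-05). Its partner in that complex, Ing2, had 2111 and 1886 against 2524, 2283 and 2125 (0.21, 95% interval -0.07 to 0.49, limma adjusted p = 0.14), and its difference was -0.44 and called with equal totals. Ing5, which joins Kat6 and Kat7 complexes, had 535 and 538 against 1105, 1134 and 1145 (1.07 ± 0.11, limma adjusted p = 1.1e-04).

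Ratios between related members were computed within each library for 15 pairs, and the values of the cell types did not overlap for 14. The exact two-sided permutation test gave p = 0.2 for each of those 14, the smallest value that 2 against 3 samples allow, and p = 0.4 for Sirt6 and Sirt7, so no pair could pass 0.05 with or without adjustment over the 15. The ratio of Kat2a to Kat2b changed most (16.8-fold), and those of Hdac4 to Hdac5 (4.30-fold) and Hdac6 to Hdac10 (4.19-fold) were among the larger changes. These ratios show unequal change and not which gene changed.

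**Figure D4:**
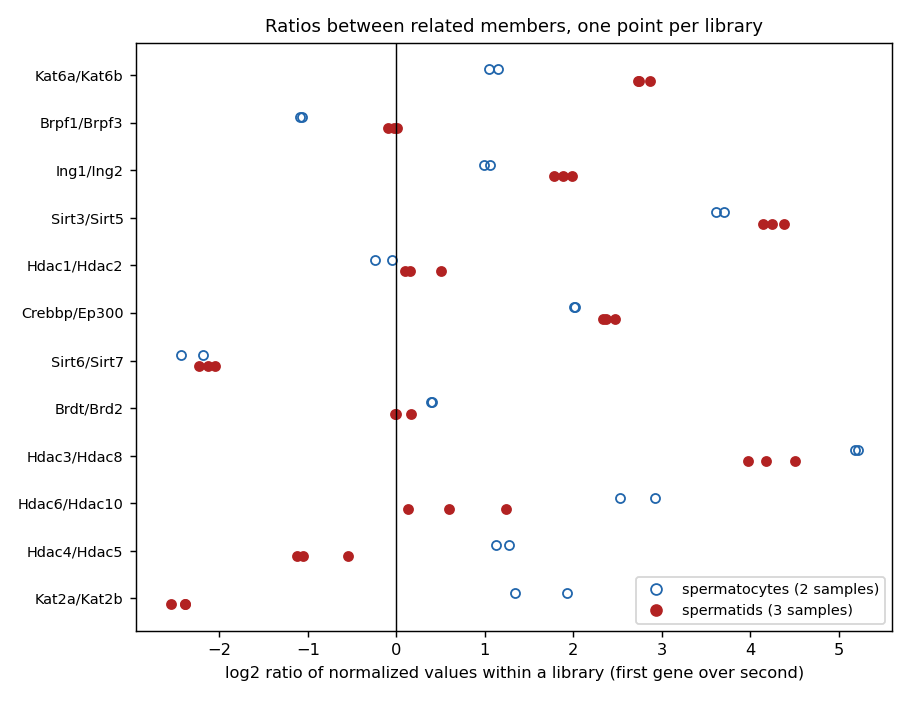
Log2 ratio of normalized values between related members in each library (open blue, 2 spermatocyte samples; filled red, 3 spermatid samples), in order of the difference between cell types. Kat2a to Kat2b, Hdac4 to Hdac5 and Hdac1 to Hdac2 lie on opposite sides of the line of equal normalized values by cell type. Brpf1 to Brpf3 and Brdt to Brd2 come near it in spermatids. The values are not divided by exon length. Per kilobase Hdac1 was above Hdac2 in both cell types, 1097 against 584 in spermatocytes and 1503 against 611 in spermatids. The points overlap only for Sirt6 to Sirt7.

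Partners of these enzymes were taken from 5 lists. The counts below stand beside 40.6% of all rows called higher and 36.5% lower, or 30.5% and 49.4% with equal totals. Of 36 tested partners of deacetylase complexes 17 were called higher in spermatids and 14 lower (median log2 difference 0.12, against 0.07 for all rows), and with equal totals 9 were higher and 20 lower. The most abundant were Rbbp4, a histone-binding subunit, which fell from 24341 and 23940 to 8082, 8304 and 8657 (-1.53 ± 0.08, limma adjusted p = 5.7e-06), Chd4, the NuRD remodeller (0.06, limma adjusted p = 0.48), and the demethylase Kdm1a (0.10, limma adjusted p = 0.31). Both equal totals and quantile normalization put Chd4 and Kdm1a among the genes called lower. Of 38 tested partners of acetyltransferase complexes 14 were higher and 11 lower (median 0.12), and with equal totals 9 and 22. The 3 most abundant, the SAGA subunit Supt20 (0.52) and the NuA4 subunits Ep400 (0.56) and Ruvbl2 (0.67), were called higher as deposited and not called with equal totals or after quantile normalization. Nutm1, a testis protein that binds Ep300, was in this list and was picked out after its values were seen: it had 128 and 85.2 in spermatocytes and 7989, 8611 and 8851 in spermatids (6.33 ± 0.18, limma adjusted p = 5.5e-07). Its spermatocyte mean was 1.26% of the spermatid mean, and a contribution of spermatid RNA to it was not tested. Trrap had the deepest fall of the same list, from 9509 and 10557 to 823, 927 and 815 (-3.55 ± 0.11, limma adjusted p = 6.6e-07).

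Of 32 other bromodomain and acetyl-lysine readers 18 were higher and 9 lower (median 0.59, or 0.31 over those with a mean of at least 100), and with equal totals 11 and 15. Of all rows 40.6% were higher and 36.5% lower, and with equal totals 30.5% and 49.4%. Without spermatocyte replicate 1 the number lower was 5. Trim28, a corepressor, had 61437 and 61069 in spermatocytes and 43366 to 50711 in spermatids (-0.35, limma adjusted p = 0.017), a fall not called without spermatocyte replicate 1 (0.098) or 2 (0.097). Its relative Trim24 had 21830 and 20922 against 34628 to 41543 (0.82, limma adjusted p = 3.2e-04), a rise not called with equal totals or after quantile normalization. The remodelling ATPase Smarca2 was called higher as deposited (0.31) and lower with equal totals, and was not called without spermatocyte replicate 2 (limma adjusted p = 0.12).

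Of 13 BET partners in transcription elongation 8 were higher and 4 lower (median 0.97, and 0.62 without spermatid replicate 1), and with equal totals 6 and 5. For all rows the shares were 40.6% higher and 36.5% lower (median 0.07), and 30.5% and 49.4% with equal totals. No test of these lists was made. Ell2, an elongation factor, had 229 and 148 in spermatocytes and 8165 to 11498 in spermatids (5.70 ± 0.22, limma adjusted p = 1.5e-06), and Aff4, the scaffold of the super elongation complex, had 2491 and 2394 against 9431 to 11665 (2.07 ± 0.12, limma adjusted p = 7.7e-06). Larp7, a subunit of the inhibitory 7SK particle, was called higher (0.45), was called lower after quantile normalization (-0.31), and was not called with equal totals or without spermatocyte replicate 1 (limma adjusted p = 0.060) or 2 (0.17). Of 17 tested genes of acetyl-CoA and NAD supply 7 were higher and 6 lower (median -0.16), and with equal totals 2 and 10. Dlat, a pyruvate dehydrogenase subunit, fell (-0.39, limma adjusted p = 0.0067; 0.057 without spermatocyte replicate 1), whereas Pdha2, the testis form of another subunit, and Dld were not called (-0.21 and 0.11) but were called lower after rescaling to equal totals and by quantile normalization.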

How the data were processed

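Gene-level messenger RNA values were available for 2 spermatocyte and 3 spermatid samples. The authors deposited a signal for each gene in each library: read counts scaled by DESeq size factors, going by the table's header and the submitters' processing notes. STAR 2.4.0, SAMtools, Picard, FastQC and the mm10 build are named in the same notes. How reads were counted, with which strand setting and with what rule for reads that match several genes, is not given in the sources used here. Of the 43 rows, 21 overlap another row.

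All values were whole multiples of the smallest value of their column within 0.001 (100% of values), so whole reads were recovered by division. The 95% intervals come from the limma fit and rest on the spread among samples. Cell type labels gave the groups. Replicate numbers follow accession order and pair no samples. Rows with a mean of at least 10 were tested with limma 3.58.1 (R 4.3.3) on log2(value + 1), with a mean-variance trend. Differences are on this scale, which understates changes of low genes. Fold changes in words are ratios of group means. Levels per kilobase used merged exons of protein-coding transcripts in GENCODE vM21. Alternatives were other pseudocounts (0.5, 10), filters (none, a mean of 100) and scalings, no trend, leaving out each sample, and edgeR 4.0.16 and DESeq2 1.42.0 on recovered reads with the authors' size factors. The limma step was tested on simulated counts. Shares and permutation tests used Python 3.11.15 and scipy 1.17.1.

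One member is kept in the counts but is not reported here. The members, gene lists and tests were chosen with earlier results of these data known. Every member may be named by rule. From each partner list the 3 genes with the highest mean were named, and Nutm1 and Trrap were named besides, for their large differences. List symbols missing from the table were matched through RefSeq synonyms, which gave 137 of 139.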

Additional observations from a re-analysis of the deposited data

How the results depend on the processing

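No paired analysis was possible because the labels give no replicate numbers that the cell types share. The counts of members called higher or lower stayed within 1.5 times their values of 18 and 18 under all 15 alternatives. Rescaling to equal totals and quantile normalization lost 5 and 4 member calls, gained 5 and 4 and turned 1 each (Brdt), and leaving out spermatocyte replicate 1 or 2 lost 5 and 6. The 2 scalings moved the median of all rows from 0.07 to -0.57 and -0.42. Differences that changed sign are given first with equal totals and then after quantile normalization: Hdac1 (-0.19 and -0.09), Hdac2 (-0.59 and -0.50), Brdt (-0.25 and -0.35), Ing2 (-0.44 and -0.32), Chd4 (-0.58 and -0.70), Kdm1a (-0.54 and -0.64), Supt20 (-0.13 and -0.06), Ep400 (-0.08 and -0.16), Smarca2 (-0.34 and -0.43), Larp7 (-0.19 and -0.31) and Dld (-0.53 and -0.58). Brd2 (-0.03) and Ruvbl2 (-0.09) changed sign after quantile normalization only. With TMM factors Hdac2 and Chd4 were at -0.04 and -0.03, and when single libraries were left out Hdac2 ran from -0.03 (without spermatid replicate 2) to 0.15. In the same order, deacetylase partners had 9 and 10 members higher, with medians of -0.53 and -0.56. Acetyltransferase partners had 9 and 9 higher and 22 and 20 lower, with medians of -0.52 and -0.43. Other readers had 11 higher and 15 lower with equal totals, medians of -0.06 and -0.04 (0.31 with a mean of at least 100), and 5 to 9 lower when single libraries were left out. Supply genes had 2 and 2 higher and 10 lower with equal totals. Over all rows 17263 were lower with no filter and 6029 with a mean of at least 100, through the number of rows tested. The within-library ratios of all 15 pairs kept their direction under the 2 pseudocounts and without each library. With edgeR 1 member call was lost (Hdac3) and with DESeq2 0.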
